A study of Gossypium hirsutum with 45 samples.

Results

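The genes described here are the cotton members of 3 chaperone families that help proteins fold: the 70-kDa heat shock proteins (Hsp70), the 90-kDa heat shock proteins (Hsp90) and the chaperonins of the cpn60 family. They were taken from the deposited expression table of Gossypium hirsutum (upland cotton, a tetraploid with an A and a D subgenome) by their description. A gene was a member if its description held the domain name Hsp70 protein, Hsp90 protein or cpn60 chaperonin. Of the genes with a cpn60 domain, 18 described as kinases were left out, and 2 Hsp90 genes (Gohir.D13G133900 and Gohir.A13G130500) were set aside by the same rule. This left 141 of 75376 genes, of which 58 were Hsp70, 26 Hsp90 and 57 cpn60 genes. The A subgenome held 67 and the D subgenome 74. A Swiss-Prot name came with 33 members (13 Hsp70, 8 Hsp90 and 12 cpn60), and the other members carried a domain name alone. The table's IDs were not matched to any gene of the reference annotation at hand, so no sequence is printed.

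Seedlings of the cultivar Hengmian HD008, with no transgene or mutation named in the labels, were grown in sterilised sand and treated at the 3-leaf stage with 10% PEG 6000. This polymer lowers the water potential around the roots and is used to imitate drought. Leaf, root and stem were each taken at 0 min (CK in the labels, before treatment) and at 10, 30, 60 and 180 min of treatment, which makes 15 groups of 3 RNA sequencing libraries each, 45 libraries together. The labels do not say whether the 3 libraries of a group came from separate plants or from pools, and the p-values therefore reflect no more than the variation among the libraries at hand, part of which may be technical. For root at 0 min, 2 columns of the deposited file carry the same name, so which labelled library each belongs to is not known; they are called x and y here, and values of this group are given in the order 2, x and y. No untreated plants of the later times are among the libraries, so treatment and time since 0 min cannot be told apart. In a whole organ, fewer cells of a type and less RNA per cell cannot be told apart either.

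Hsp70 proteins bind exposed stretches of unfolded proteins and release them in a cycle driven by ATP, which J-domain proteins start and nucleotide exchange factors such as BAG and GrpE proteins complete. Hsp90 acts later, on proteins that are already partly folded, with a set of co-chaperones. Chaperonins are barrels that enclose a folding protein: those of chloroplasts and mitochondria work with a cpn10 lid, while the cytosolic chaperonin CCT (T-complex protein 1) has a lid built into its subunits. Plants hold forms of Hsp70 and Hsp90 in the cytosol, the endoplasmic reticulum, chloroplasts and mitochondria, and many of the cytosolic ones are known for their induction by heat.

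The levels are FPKM, in which the reads of a gene are divided by its length and by a factor for the depth of its library, so that genes can be compared per length. Reads assigned to genes numbered 16373617 to 21774520 per library, and a single read on a gene of 1 kb stood for 0.0440 to 0.0899 FPKM. Tests were made with limma on log2(FPKM + 1) over all genes, and a change is called at an adjusted p (Benjamini-Hochberg over all genes tested) below 0.05. Every log2 change below is on this scale, which understates the change of low genes. Of the members, 118 passed the filter (at least 1 FPKM in at least 3 libraries) in each tissue and 125 in the fit of all libraries. The 16 left untested there reached at most 1.96 FPKM in any library, and 5 of them (3 Hsp70 and 2 cpn60) were at 0 in all 45. The labelled tissues stood apart in their markers: 274 genes of green tissue summed to 9181 to 17137 FPKM in leaf, 1999 to 4849 in stem and 51.2 to 263 in root. Within tissues, libraries of a group differed along 1 main axis, the first principal component of their deviations from the group means, which held 36.9% of that spread in leaf, 36.6% in root and 45.03% in stem.

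Before treatment Hsp70 and Hsp90 were at a lower summed level in root than in leaf and stem. The summed FPKM of the Hsp70 members was 3555 ± 608 (SD, n = 3) in leaf, 1879 ± 363 in root and 3925 ± 375 in stem. Hsp90 summed to 1648 ± 341 in leaf, 532 ± 80.7 in root and 1174 ± 266 in stem. Member by member, 51 of 125 were higher in leaf than in root and 11 lower, where 23.7% and 23.5% of all genes were called higher and lower; the 11 were 5 to 7 without leaf 0 min library 1 or 2 or root 0 min library x or y. For Hsp90 the count was 16 higher and 0 lower of 25, also with 0 lower at an unadjusted p under 0.05 in limma, which was the only tool run. For Hsp70 it was 26 higher and 6 lower of 48, the 6 being 3 without root 0 min library y. For cpn60 it was 9 higher and 5 lower of 52, below the share of all genes on both sides, and the 5 were 2 or 3 without any 1 of the 6 libraries. Against stem, 4 members were higher in root and 53 lower, beside 21.1% and 20.9% of all genes. Leaf and stem differed less. Against stem, 23 members were higher in leaf and 12 lower (7 without leaf 0 min library 1), beside 17.7% and 12.9% of all genes. This split of 65.7% higher among the calls was 52.5% with libraries scaled by their own totals and 51.2% with quantile normalization. Among all genes called, the shares higher were 57.8%, 50.5% and 51.7% in that order.

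The largest differences between leaf and root at 0 min sat in a chaperonin and an Hsp90 gene. The cpn60 gene Gohir.A05G128400 (chromosome A05, 12750350 to 12754936) was at 47.1, 37.2 and 25.5 FPKM in leaf and at 0.921, 1.72 and 1.53 FPKM in root, a log2 difference of 3.95 ± 0.33 SE, adjusted p = 3.2e-12. Gohir.A06G002800, an Hsp90 gene on chromosome A06, 170114 to 175078, was at 96.8, 155 and 128 FPKM in leaf and 10.5, 13.2 and 11.98 FPKM in root, a difference of 3.28 ± 0.23 SE, adjusted p = 3.76e-14. The libraries of the 2 tissues did not overlap for either gene. Stem lay between leaf and root for both, where the cpn60 gene stood at 7.06, 14.8 and 16.9 FPKM and the Hsp90 gene at 53.6, 57.3 and 85.4 FPKM.

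After 180 min of PEG the summed level of Hsp70 and of Hsp90 was lower in leaf and stem and higher in root. Hsp70 went from 3555 ± 608 to 1135 ± 61.9 FPKM in leaf and from 3925 ± 375 to 1558 ± 313 FPKM in stem, whereas in root it went from 1879 ± 363 to 4358 ± 1488 FPKM. Hsp90 went from 1648 ± 341 to 402 ± 18.8 FPKM in leaf, from 1174 ± 266 to 339 ± 43.4 FPKM in stem and from 532 ± 80.7 to 927 ± 253 FPKM in root. The mean sum of the chaperonins was lower in each of the 3 tissues, from 1068 ± 67.2 to 552 ± 28.2 FPKM in leaf, from 870.1 ± 187 to 467 ± 44.2 FPKM in stem and from 621 ± 65.1 to 432 ± 146 FPKM in root. The root cpn60 libraries at 0 and 180 min overlapped, at 565 to 692 FPKM and 334 to 599 FPKM. With own totals, that is each library scaled by its sum of reads, the root sums of Hsp70 and Hsp90 at 0 and 180 min overlapped. Hsp70 was at 1613 to 2311 and 2198 to 3830 FPKM and Hsp90 at 450.1 to 625 and 505 to 769 FPKM. The root cpn60 sums did not overlap with own totals, at 548 to 714 and 214 to 435 FPKM. That scaling of the sums was chosen after seeing the data. The marker lists moved in root too. Its 233 root genes (transporters of nitrate, phosphate and ammonium, and metallothioneins) summed to 13659 to 19302 FPKM at 0 min and 5650 to 7763 FPKM at 180 min, where 33 of 163 tested were higher and 59 lower. The 274 green-tissue genes summed to 80 to 147 FPKM and then 179 to 263 FPKM in root, with 19 of 42 tested higher, 7 lower and 118 of the 274 at 0 in all root libraries. Their part in the root result was not tested. A sum is led by its most abundant genes, and the member counts that follow give each gene the same weight.

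**Figure D1:**
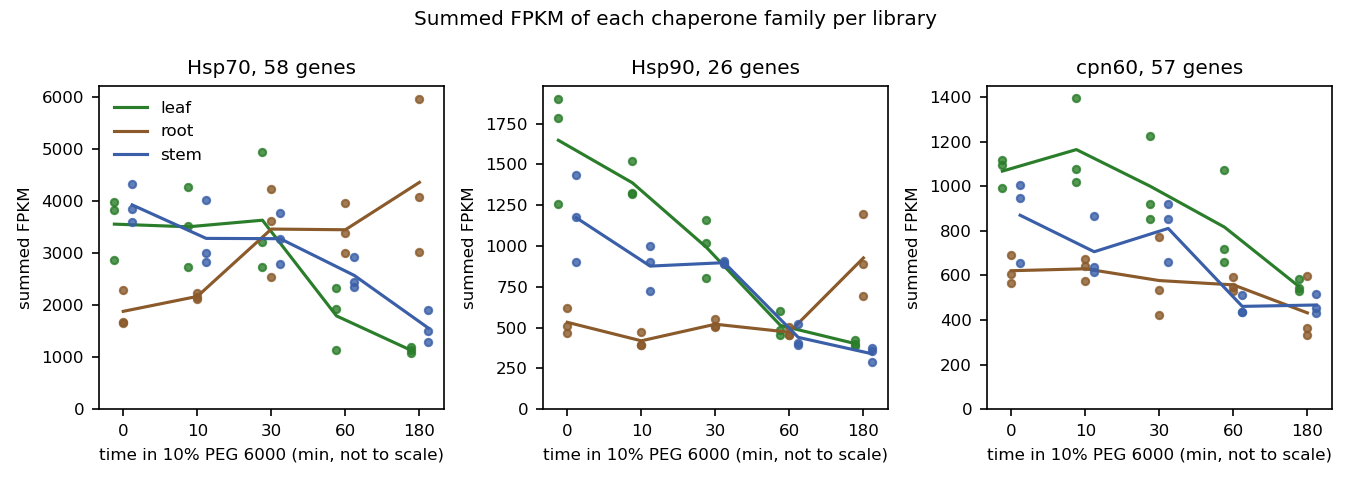
Summed FPKM (y axis) of the Hsp70, Hsp90 and cpn60 members in each library, by minutes in PEG (x axis) and tissue; points are libraries and lines join group means of 3 libraries and the time axis is not to scale. Leaf and stem sums of Hsp70 and Hsp90 are lowest at 180 min, where the root means are highest as deposited.

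In leaf the number of members called lower grew from 10 to 180 min. At 10 min 1 member was called, and it was lower: the Hsp70 gene Gohir.A09G157200, from 39.7, 46.5 and 48.2 to 26.8, 18.6 and 17.2 FPKM, with 0 higher, beside 0.884% of all genes higher and 0.625% lower. That call was lost when any 1 of its 6 libraries was left out, and the 0.85% of members lower lay near the share of all genes. At 30 min 13 members were lower and 0 higher, beside 9.5% and 8.33% of all genes, and 9 of the 13 were among the 23 Hsp90 genes tested. The share of members lower, 11.0%, lay near that of all genes. By family it was 39.1% for Hsp90, above that share, and 6.7% for Hsp70 and 2% for cpn60, below it. The 13 came down to 7 without leaf 0 min library 2 or leaf 30 min library 1, and the 9 to 5. At 60 min 30 were lower and 0 higher, beside 1.9% and 2.04% of all genes, with 15 Hsp70, 13 Hsp90 and 2 cpn60 genes. Without leaf 60 min library 3 the 30 were 19. The 15 Hsp70 genes were 8 without leaf 0 min library 2 and 7 without leaf 0 min library 3 or leaf 60 min library 1 or 3, and the 2 cpn60 genes ranged from 0 to 5 as each of the 6 libraries was left out. At 180 min 64 of 118 were lower and 2 higher, beside 9.61% and 9.89% of all genes, and 1 was left of the 2 without any 1 leaf 0 min library or leaf 180 min library 1 or 3. The lower ones were 30 of 45 Hsp70, 17 of 23 Hsp90 and 17 of 50 cpn60 genes, and 29 of the 30 members lower at 60 min were lower at 180 min too. The median log2 change at 180 min was -0.92 for Hsp70, -1.47 for Hsp90 and -0.36 for cpn60, beside -0.04 for all genes tested. For the counts of 0 in leaf, an unadjusted p under 0.05 marked 3 members higher at 10 min, 2 at 30 min and 0 at 60 min.

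Stem calls were in the same direction, with few calls among all genes at 10 and 30 min. The median change of all members tested at 10 min was -0.30 in stem, beside 0.01 for all genes, and -0.03 in leaf, beside -0.02. At 30 min it was -0.30 in stem, beside -0.003, and -0.18 in leaf, beside -0.07. The later calls in stem therefore do not show a later fall. At 10 min 0 members were called, beside 0.0021% of all genes higher and 0% lower, although 101 of 118 changes were below 0 and 25 had an unadjusted p under 0.05, all lower. At 30 min 4 were lower and 0 higher (1 at an unadjusted p under 0.05), beside 0.759% and 1.61% of all genes. These 4 became 0 to 2 when stem 0 min library 2 or 3 or any stem 30 min library was left out. At 60 min 66 were lower and 1 higher, beside 11.6% and 13.3% of all genes, with 19 of 44 Hsp70, 18 of 25 Hsp90 and 29 of 49 cpn60 genes lower. That total was 42 without stem 0 min library 2, 41 without stem 0 min library 3 and 40 without stem 60 min library 3. The 1 higher was described as Potassium transporter 4, and 1 of the 29 lower cpn60 genes also had a FYVE domain. At 180 min 61 were lower and 0 higher (1 at an unadjusted p under 0.05), beside 14.3% and 15% of all genes, with 24 Hsp70, 17 Hsp90 and 20 cpn60 genes. The median changes were then -0.65, -1.31 and -0.49, beside -0.00 for all genes. Of the members lower at 60 min, 48 were lower at 180 min too.

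Root split by family. At 10 min 2 members were lower and 0 higher (4 at an unadjusted p under 0.05), beside 7.03% and 8.16% of all genes; 1 was left without root 0 min library y or root 10 min library 1 or 2. At 30 min 15 were higher and 7 lower, beside 17.6% and 16.6% of all genes, and 11 of the 15 were Hsp70 genes. The 15 were 8 without root 30 min library 2, the 7 lower were 12 without root 30 min library 1, and the 11 were 7 without root 0 min library 2 or root 30 min library 2. At 60 min 18 were higher and 12 lower, beside 19.5% and 19.1%, and 16 of the 18 were Hsp70 genes. At 180 min 34 of 118 were higher and 40 lower, beside 28.5% and 26.9%, so the share of members called higher lay near that of all genes. By family, 23 of 45 Hsp70 genes were higher and 5 lower, while 4 of 49 cpn60 genes were higher and 25 lower, and Hsp90 split into 7 higher and 10 lower of 24. The 5 were 3 without any 1 root 0 min library and 2 without root 180 min library 2, and the 4 were 2 without root 0 min library 2 or y. Of these 4 cpn60 genes, 1 also had a FYVE domain and 1 was described as Potassium transporter 4. Of the 25 lower, 1 also had a FYVE domain. The medians at 180 min were 0.59 for Hsp70, -0.18 for Hsp90 and -0.56 for cpn60, beside -0.00 for all genes.

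Root counts depended on how the libraries were scaled. Dividing each root library by its own total moved the median change of all genes by -0.152 at 30 min, by -0.154 at 60 min and by -0.447 at 180 min. With that scaling 11 Hsp70 genes were higher at 180 min in place of 23, beside 7352 of 47062 genes in place of 13311 of 46711. With quantile normalization 13 Hsp70 genes were higher, beside 11985 of 46711 genes. Relative to the median of all genes, the Hsp70 median was 0.595 as deposited, 0.512 with own totals and 0.345 with quantile normalization. Among members called at 180 min 45.9% were higher as deposited, 25.0% with own totals and 33.3% with quantile normalization. Among all genes called these shares were 51.5%, 25.9% and 48.5%. At 60 min they were 60.0%, 35.7% and 45.5% for members, beside 50.5%, 37.5% and 47.0% for all genes. At 30 min they were 68.2%, 38.5% and 62.5%, beside 51.4%, 37.5% and 49.0%. The strong root rises named below were called under each scaling, with the exceptions given beside them.

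**Figure D2:**
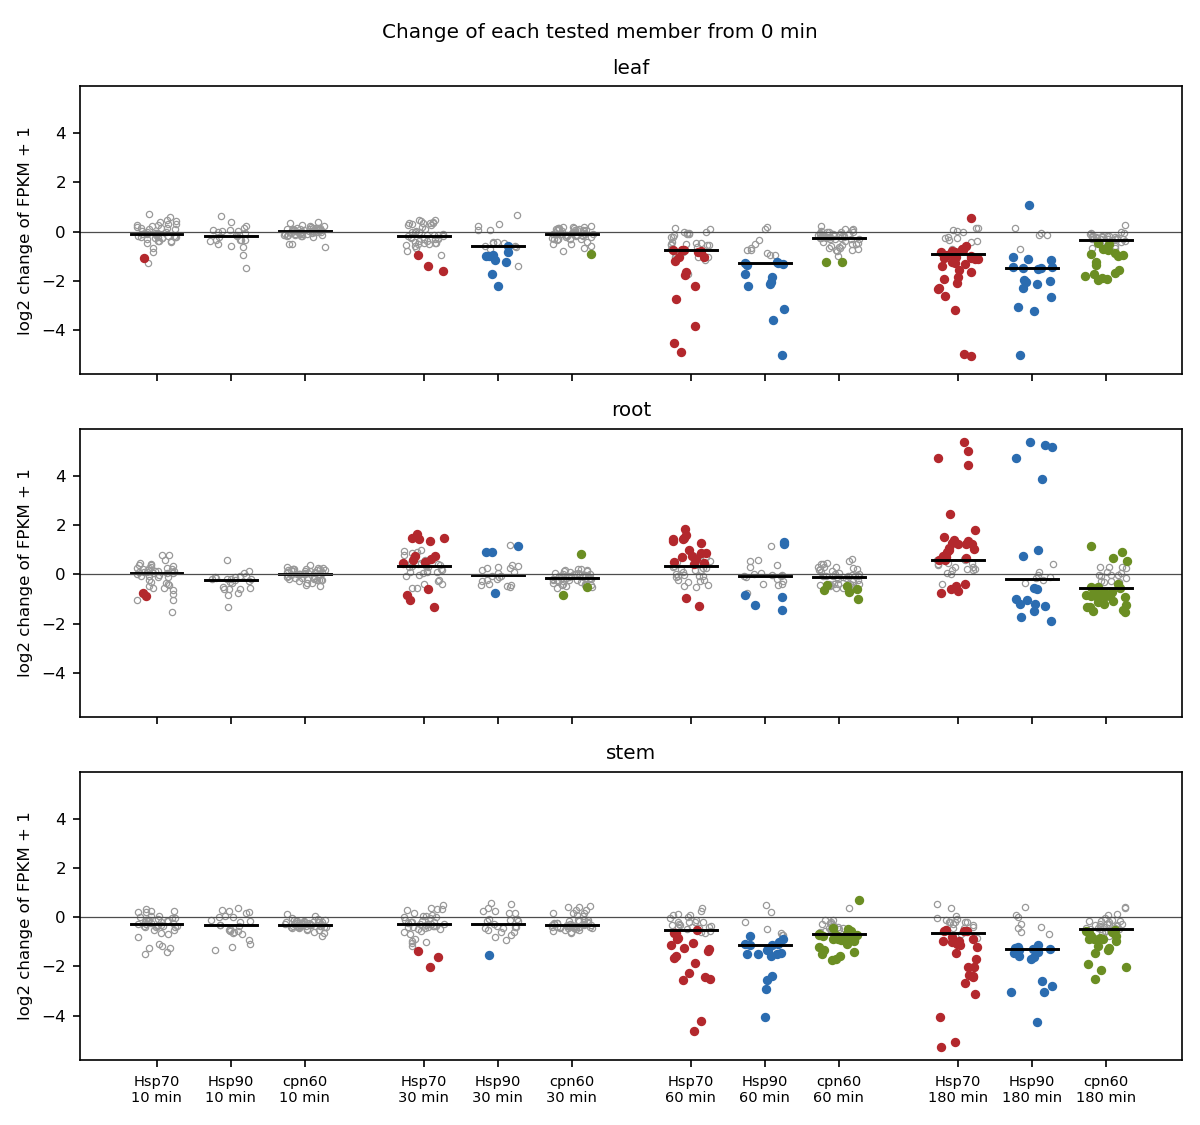
Change from 0 min in log2(FPKM + 1) (y axis) of every tested member, by tissue, family and minutes in PEG (x axis); filled points were called at an adjusted p below 0.05 and bars are family medians. In leaf and stem most points of the 3 families together lie below 0 at every time, while at 180 min in root Hsp70 points lie mostly above 0 and cpn60 points mostly below.

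Wide swings were seen in Hsp70 genes described by the domain alone. Gohir.A05G096700 (chromosome A05, 9120728 to 9123850) stood at 50.01, 55.99 and 101 FPKM in leaf at 0 min and at 0.962, 1.29 and 1.18 FPKM at 180 min, a log2 change of -4.96 ± 0.5 SE, adjusted p = 2.15e-05. In stem it went from 77.5, 91.01 and 161 to 0.948, 2.87 and 1.68 FPKM (-5.27 ± 0.49 SE, adjusted p = 2.25e-05). Both falls were in place at 60 min, at 3.64, 1.05 and 1.62 FPKM in leaf and 5.66, 5.102 and 3.403 FPKM in stem. Root went the other way and late. It was at 5.88, 4.64 and 28.8 FPKM at 0 min, still at 11.6, 10.9 and 12.8 FPKM at 60 min, and at 475, 295 and 157 FPKM at 180 min, a change of 4.74 ± 0.55 SE, adjusted p = 7.91e-06. In all 3 tissues the libraries at 180 min lay wholly outside those at 0 min. Root 0 min library y, the third of the values, was the high one of its group, and without it the change was 5.50.

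Gohir.D05G096900 on chromosome D05, 8020313 to 8023372 behaved alike in level and direction. It fell from 46.6, 56.05 and 122 to 1.01, 0.994 and 1.19 FPKM in leaf and from 118, 129 and 239 to 1.95, 7.84 and 2.57 FPKM in stem. In root it rose from 9.704, 7.43 and 53.7 to 663, 384 and 205 FPKM (4.46 ± 0.62 SE, adjusted p = 3.9e-05, or 5.30 without root 0 min library y). The A and D genes carry nearly the same number on chromosomes of the same number, and where such genes are near-identical the counting may split reads between them unevenly, so their separate values are uncertain.

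Other Hsp70 genes rose in root without being abundant in the shoot. Gohir.A13G234100 (chromosome A13, 111504508 to 111506466) went from 3.43, 3.44 and 30.8 FPKM to 406, 310.0 and 170.2 FPKM in root (5.03 ± 0.61 SE, adjusted p = 1.22e-05, or 5.97 without library y). In leaf it was at 2.195, 2.32 and 8.71 FPKM at 0 min and 1.29, 1.63 and 2.98 FPKM at 180 min, which did not pass the test (adjusted p = 0.252). Its stem libraries fell from 9.52, 6.196 and 24.7 to 1.08, 2.55 and 0.708 FPKM. Gohir.D13G239700 (chromosome D13, 64945549 to 64948008) rose in root from 1.19, 2.11 and 7.07 to 236, 170.4 and 96.9 FPKM (5.38 ± 0.47 SE, adjusted p = 6.04e-07). Its leaf libraries stayed between 0.421 and 2.35 FPKM at every time. In each of these genes root 180 min library 1 was the highest and library 3 the lowest of its group. The same libraries lay at opposite ends of the main axis in root, at -73.0 and 87.9, and the part of that axis in the result was not tested.

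**Figure D3:**
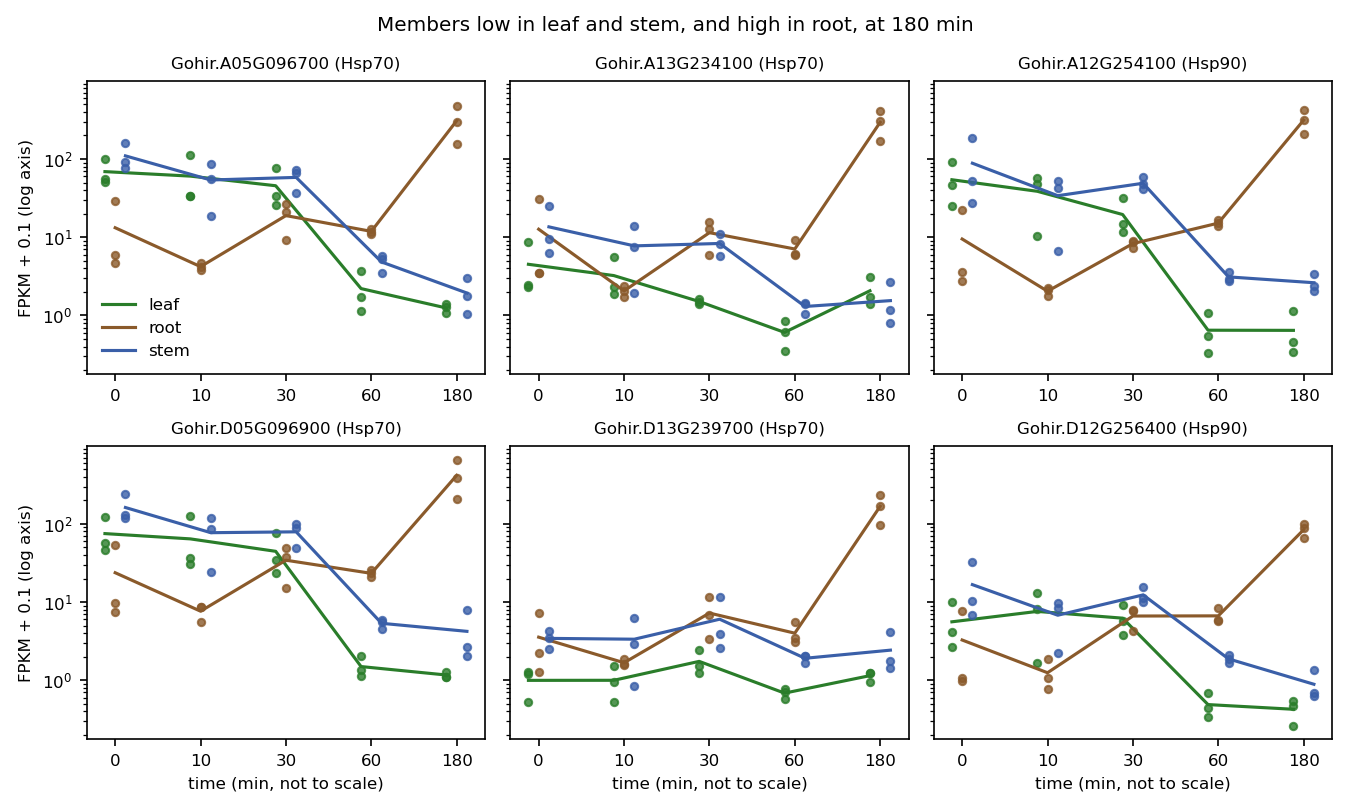
FPKM + 0.1 on a log axis (y) of 6 members in each library, by minutes in PEG (x axis) and tissue: 4 Hsp70 genes (Gohir.A05G096700, Gohir.D05G096900, Gohir.A13G234100, Gohir.D13G239700) and 2 Hsp90 genes (Gohir.A12G254100, Gohir.D12G256400, the latter chosen after its values were seen). Root points rise at 180 min in all 6, while leaf and stem points of the pairs on chromosomes 5 and 12 fall from 60 min on.

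The most abundant Hsp70 genes had an earlier and smaller root rise. Gohir.D06G173000 (chromosome D06, 60529905 to 60532410) held 22.8% of the family's FPKM in root and had the highest mean of all members. Its root libraries went from 356, 287 and 403 FPKM at 0 min to 647, 1037 and 1357 FPKM at 30 min (1.49 ± 0.32 SE, adjusted p = 0.00257) and 772, 975 and 1233 FPKM at 60 min (1.5 ± 0.32 SE, adjusted p = 0.00215). At 180 min they were at 753, 493 and 369.8 FPKM, which overlapped the start and did not pass (adjusted p = 0.135). In leaf it fell from 583, 857 and 946 to 222, 199 and 186 FPKM by 180 min (-1.94 ± 0.48 SE, adjusted p = 0.0119). Stem levels fell from 788, 879 and 610.4 to 186, 399 and 169 FPKM (-1.69 ± 0.36 SE, adjusted p = 0.00423), after 60 min values of 786, 564 and 657 FPKM that overlapped 0 min. Gohir.A06G177000, the next in level and chosen after its values were seen, moved alike, with root log2 changes of 1.43, 1.42 and 0.61 at 30, 60 and 180 min, the last not called.

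Gohir.A01G223300 and Gohir.D01G212600, an Hsp70 pair of like position on chromosomes A01 and D01, rose in root from 30 min and were called to 180 min. The A gene went from 38.6, 51.9 and 50.5 FPKM to 97.9, 179 and 182, then 162, 177 and 178 and then 184, 107 and 88.4 FPKM at 30, 60 and 180 min, with its largest change at 60 min (1.86 ± 0.3 SE, adjusted p = 0.000316). The D gene reached 1.58 ± 0.29 SE, adjusted p = 0.000859 at 60 min. At 180 min the A gene's root call was lost with quantile normalization and the D gene's with either other scaling. In leaf both fell by 180 min, by 2.33 and 2.30 on the log2 scale, and in stem by 1.46 and 2.03.

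Hsc70 is the constitutive cytosolic form of Hsp70, and 1 of the 2 genes with that name was tested. This gene, Gohir.D09G152500 (chromosome D09, 45872331 to 45875402), fell in leaf from 51.5, 52.8 and 85.3 to 28.2, 17.3 and 14.8 FPKM at 30 min and 5.22, 6.76 and 5.61 FPKM at 180 min (-3.19 ± 0.38 SE, adjusted p = 9.69e-05). In stem it fell from 129, 102 and 94.8 to 3.12, 13.9 and 3.401 FPKM (-4.07 ± 0.41 SE, adjusted p = 3.82e-05), with the 180 min library 2 the highest, and without it the change was -4.67. In root it was at 26.3, 25.7 and 62.4 FPKM at 0 min and 95.5, 44.03 and 35 FPKM at 180 min, ranges that overlapped (adjusted p = 0.193). The stem fall was already called at 30 min (-2.02 ± 0.41 SE, adjusted p = 0.0276), but that call was lost without any 1 of its 6 libraries.

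BiP, the Hsp70 of the endoplasmic reticulum, was represented by Gohir.A11G019600, named Luminal-binding protein 5 (chromosome A11, 1766705 to 1770665). In leaf it fell from 92.7, 157 and 80.7 to 31.9, 38.97 and 28.3 FPKM (-1.66 ± 0.23 SE, adjusted p = 0.000323). In root it rose from 15.99, 24.7 and 16.5 FPKM to 50.5, 48.02 and 57.7 FPKM at 60 min (1.43 ± 0.25 SE, adjusted p = 0.000632) and 88.5, 56.1 and 65.7 FPKM at 180 min (1.83 ± 0.25 SE, adjusted p = 3.9e-05). The root libraries of both times lay above all those at 0 min. In stem it was at 39.9, 57.9 and 57.9 FPKM and then at 44.99, 54.4 and 37.4 FPKM, which overlapped (adjusted p = 0.667). The response of this gene also differed between leaf and stem (interaction F test in limma over the 4 times, adjusted p = 0.00608).

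Named organelle forms of Hsp70 fell in leaf and rose in root, at lower levels. The chloroplast form Gohir.D10G121900, Heat shock 70 kDa protein 6, fell in leaf from 44.7, 57.4 and 51.4 to 19.1, 17.5 and 19.4 FPKM (-1.4 ± 0.23 SE, adjusted p = 0.000978). In root it was at 7.33, 9.49 and 11.6 FPKM and rose to 24.1, 24.9 and 22.4 FPKM (1.27 ± 0.15 SE, adjusted p = 1.07e-05), with values of 8.74, 8.47 and 9.42 FPKM at 60 min. Its stem libraries went from 21.2, 25.7 and 28.97 to 14.3, 18.5 and 9.88 FPKM (-0.82 ± 0.21 SE, adjusted p = 0.0132), a call lost without stem 0 min library 3. The mitochondrial form Gohir.A12G017300 went from 8.83, 11.7 and 11.2 to 5.53, 4.096 and 3.55 FPKM in leaf (-1.11 ± 0.19 SE, adjusted p = 0.00122) and from 9.41, 9.23 and 10.9 to 14.5, 14.1 and 17.5 FPKM in root (0.59 ± 0.15 SE, adjusted p = 0.0038). In stem the mitochondrial gene did not pass (adjusted p = 0.479), and its root call was lost with either other scaling.

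Hsp70-14 to 17 are larger relatives that act mainly as exchange factors for other Hsp70 proteins. Of the 7 members with such names, 2 were lower and 1 higher in leaf at 180 min, beside 9.61% and 9.89% of all genes. In root 2 were lower and 1 higher, beside 26.9% and 28.5%, and in stem 3 were lower, beside 14.3%. Gohir.A10G080000, Heat shock 70 kDa protein 14, fell in leaf from 26.3, 29.3 and 30.6 to 17.7, 13.4 and 15.8 FPKM and in stem from 27.2, 29.8 and 38.8 to 14.5, 18.95 and 13.9 FPKM. Gohir.A10G192200, Heat shock 70 kDa protein 17, was the only Hsp70 gene higher in leaf at 180 min, from 0.892, 0.9302 and 0.784 to 1.89, 1.404 and 1.88 FPKM (0.54 ± 0.16 SE, adjusted p = 0.0348), and 5 of the 6 libraries could each remove that call. In stem it fell from 2.802, 4.15 and 2.84 to 1.29, 1.33 and 1.16 FPKM (-0.9 ± 0.17 SE, adjusted p = 0.0019).

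A minority of Hsp70 genes fell in root as well. Gohir.A02G007800 went in root from 20.2, 19.1 and 27.4 FPKM to 11.5, 10.8 and 15.6 FPKM at 10 min (-0.77 ± 0.17 SE, adjusted p = 0.00757) and stayed at 11.2, 13.6 and 13.7 FPKM at 180 min (-0.74 ± 0.17 SE, adjusted p = 0.00221). It was also lower at 180 min in leaf (-0.69 ± 0.22 SE, adjusted p = 0.0382) and in stem (-0.56 ± 0.18 SE, adjusted p = 0.0338), calls that each of several single libraries could remove. It was the only Hsp70 gene of the 45 lower in all 3 tissues at 180 min. Gohir.D11G345200, an abundant Hsp70 gene, rose in root from 152, 152 and 304 to 613, 475 and 312 FPKM (1.23 ± 0.3 SE, adjusted p = 0.00365), a call lost with either other scaling, and was at 184, 284 and 224 FPKM and 235, 167 and 158 FPKM in stem (adjusted p = 0.42).

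Among Hsp90 genes the most abundant fell in the shoot and did not pass in root. Gohir.A08G025400 (chromosome A08, 3114026 to 3117062) went in leaf from 292, 416 and 442 FPKM to 181, 192 and 115 FPKM at 30 min (-1.25 ± 0.27 SE, adjusted p = 0.00682), 117, 69.2 and 62.7 FPKM at 60 min and 73.4, 80.4 and 73.9 FPKM at 180 min (-2.3 ± 0.27 SE, adjusted p = 6.39e-05). Stem values fell from 226, 291 and 305 to 75.9, 109 and 88.7 FPKM (-1.58 ± 0.27 SE, adjusted p = 0.00105). Its root libraries were at 134, 135 and 195 FPKM and 191, 119 and 100.5 FPKM and overlapped (adjusted p = 0.476). Most leaf calls at 30 min were in this family, and their median change in leaf was -0.60, beside -0.18 for Hsp70 and -0.11 for cpn60.

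Gohir.A12G254100, an Hsp90 gene on chromosome A12, 107301251 to 107304663, had the widest opposition in its family. It fell in leaf from 24.99, 46.96 and 90.8 to 0.244, 0.362 and 1.03 FPKM (-5.01 ± 0.58 SE, adjusted p = 7.47e-05). It rose in root from 3.54, 2.65 and 21.95 to 421, 312 and 210.3 FPKM (5.39 ± 0.5 SE, adjusted p = 1.03e-06, or 6.22 without root 0 min library y). In stem it fell from 27.4, 52.3 and 185 to 1.93, 3.32 and 2.31 FPKM (-4.24 ± 0.7 SE, adjusted p = 0.000901). That stem change was -4.84 without stem 0 min library 1 and -3.49 without library 3. Its counterpart in number on the D subgenome, Gohir.D12G256400, chosen after its values were seen, did the same at lower levels: root libraries went from 0.889, 0.972 and 7.65 to 98.6, 87.3 and 66.2 FPKM (4.72 ± 0.46 SE, adjusted p = 1.72e-06, or 5.44 without library y). Its leaf fall (-2.13 ± 0.53 SE, adjusted p = 0.0129) was lost without leaf 0 min library 3.

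Hsp83 is a name for cytosolic Hsp90, and both genes that carried it rose in root from near 0. Gohir.A03G020600 (chromosome A03, 4122467 to 4125505) went from 0.226, 0.297 and 0.974 FPKM to 67.1, 76.1 and 27.96 FPKM at 180 min (5.19 ± 0.32 SE, adjusted p = 4e-08). Gohir.D03G148100 (chromosome D03, 51206760 to 51210176) went from 0.507, 0.116 and 0.627 FPKM, through 2.84, 2.296 and 2.43 FPKM at 60 min (1.33 ± 0.28 SE, adjusted p = 0.00191), to 66.9, 60.7 and 35.5 FPKM (5.26 ± 0.28 SE, adjusted p = 9.99e-09). In leaf and stem neither gene exceeded 3.19 FPKM in any library, and none of their tested changes there passed. A further Hsp90 gene, Gohir.D08G135400, chosen after its values were seen, rose in root from 0.199, 0.1001 and 0.5403 to 20.7, 19.4 and 13.9 FPKM (3.89 ± 0.21 SE, adjusted p = 1.32e-08).

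Gohir.A01G093900, named Heat shock protein 90-2 (chromosome A01, 14474335 to 14477745), is another cytosolic form. In leaf it fell from 35.6, 45.7 and 69.5 FPKM to 12.1, 13.4 and 5.46 FPKM at 30 min (-2.21 ± 0.35 SE, adjusted p = 0.00136) and 5.14, 4.697 and 5.12 FPKM at 180 min (-3.05 ± 0.35 SE, adjusted p = 6.55e-05). In stem it fell from 24.03, 39.7 and 47.8 to 3.35, 8.01 and 4.68 FPKM (-2.6 ± 0.34 SE, adjusted p = 0.000203). In root it went from 11.8, 12.6 and 23.3 to 53.1, 26.5 and 21.5 FPKM, a called rise (0.99 ± 0.3 SE, adjusted p = 0.0125) although library y at 0 min lay above library 3 at 180 min. That root call was lost without root 0 min library 2 or x or root 180 min library 1, and with either other scaling.

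Endoplasmin, the Hsp90 of the endoplasmic reticulum, was named in 2 genes that differed. Gohir.D06G005900 (chromosome D06, 37566 to 42219) fell in leaf from 54.5, 90.3 and 68.5 to 15.9, 16.9 and 15.9 FPKM (-2.03 ± 0.18 SE, adjusted p = 8.72e-06) and in stem from 20.1, 36.4 and 38.8 to 10.9, 10.5 and 14.1 FPKM (-1.31 ± 0.29 SE, adjusted p = 0.00598). In root it stood at 9.13, 10.6 and 9.48 FPKM and 9.44, 6.84 and 9.92 FPKM (adjusted p = 0.504), unlike the BiP gene, whose root change passed. The other endoplasmin, Gohir.A01G110500, was low and was the only Hsp90 gene higher in leaf at 180 min, from 1.53, 1.596 and 0.7596 to 4.52, 3.996 and 2.91 FPKM (1.07 ± 0.19 SE, adjusted p = 0.0018).

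The most abundant genes named for chloroplast and mitochondrial Hsp90 fell in all 3 tissues. The chloroplast form Gohir.A03G107100, Heat shock protein 90-5, went from 58.3, 61.8 and 59.5 to 24.5, 26.2 and 28.7 FPKM in leaf (-1.15 ± 0.24 SE, adjusted p = 0.0045). In root it went from 11.2, 10.1 and 11.3 to 1.79, 2.63 and 6.32 FPKM (-1.5 ± 0.29 SE, adjusted p = 0.000614), and in stem the change was -1.23 ± 0.22 SE, adjusted p = 0.0015. The mitochondrial form Gohir.A07G190600, Heat shock protein 90-6, fell by 1.43 in leaf, by 0.98 in root and by 1.4 in stem on the log2 scale. The steepest root fall of an Hsp90 gene was in Gohir.A13G088900, from 3.51, 3.21 and 3.45 to 0.0555, 0.232 and 0.285 FPKM (-1.89 ± 0.19 SE, adjusted p = 1.86e-06), whose leaf libraries did not pass at 180 min (adjusted p = 0.87). Of the 7 Hsp90 genes that rose in root, 3 were cytosolic by name and 4 carried the domain name alone. Of the 10 that fell, 2 were named for chloroplasts, 1 for mitochondria and 1 as endoplasmin.

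Of 3 chaperonin genes named for the chloroplast, 2 were tested in leaf and both were lower there at 180 min. The abundant one, Gohir.A10G192400, named Chaperonin 60 subunit beta 2 of the chloroplast (chromosome A10, 108000530 to 108005032), was at 103, 99.2 and 97.5 FPKM in leaf at 0 min, 46.98, 99.4 and 39.6 FPKM at 60 min and 22.01, 24.8 and 30.8 FPKM at 180 min (-1.92 ± 0.31 SE, adjusted p = 0.000933). The stem libraries fell from 54.5, 65.8 and 85.6 FPKM to 23.8, 21.5 and 20.6 FPKM at 60 min and 11.2, 12.96 and 20.1 FPKM at 180 min (-2.16 ± 0.27 SE, adjusted p = 0.00013). In root it went from 20.2, 24.4 and 26.5 to 10.3, 11.2 and 23.4 FPKM, which overlapped and only just passed (-0.71 ± 0.29 SE, adjusted p = 0.0486); leaving out any of 5 of the 6 libraries ended that call. The beta 4 subunit Gohir.D13G099600 was nearly confined to leaf in these libraries, at 6.25, 4.44 and 2.19 FPKM, against at most 0.0912 FPKM in any root library and at most 0.485 FPKM in any stem library.

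The chaperonin gene with the highest mean in leaf, Gohir.D13G237600 (chromosome D13, 64805949 to 64809406), carried the domain name alone. It fell in leaf from 152, 152 and 119.7 to 31.1, 51.6 and 51.03 FPKM (-1.67 ± 0.31 SE, adjusted p = 0.00212) and in stem from 39.8, 55.7 and 72.1 to 10.96, 10.6 and 17.7 FPKM (-2.01 ± 0.28 SE, adjusted p = 0.000289). Gohir.A13G232000 fell further in both, by 1.96 in leaf and by 2.53 in stem on the log2 scale, and did not pass in root (adjusted p = 0.862). Of the 9 cpn60 genes that were higher in leaf than in root at 0 min, 8 were lower in leaf at 180 min, but that count shares its leaf 0 min libraries with the choice of the 9 and is a description. In stem 6 of the 7 tested were lower at 60 min and 5 of 7 at 180 min, beside 23 and 15 of the other 42. Among all genes 11.6% and 14.3% were lower in stem at these times. The choice came from the fit of all 45 libraries, so stem libraries entered its estimate of spread. The stem counts are therefore a description too.

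The cpn60 counts moved most with single libraries. Of cpn60 genes 70% in leaf, 89.8% in root and 87.8% in stem weighed positively on the tissue's main axis, against 48.0%, 45.1% and 49.0% of all genes. The leaf 0 min libraries lay at 55.9, 21.4 and -77.2 on it and the stem 0 min libraries at -88.8, 48.2 and 40.6; its part in the cpn60 falls was not tested. The 17 cpn60 genes lower in leaf at 180 min were 10 without leaf 0 min library 1 or leaf 180 min library 1 and 11 without leaf 180 min library 2. The 29 lower in stem at 60 min were 10 without stem 0 min library 2, 11 without stem 0 min library 3 or stem 60 min library 3 and 12 without stem 60 min library 2. The 20 lower in stem at 180 min were 11 without stem 0 min library 2 or 3 or stem 180 min library 1, 13 without stem 180 min library 2, and 13 with libraries scaled by their own totals.

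The mitochondrial chaperonins and CCT subunits were called mostly in stem. Of 3 tested genes named mitochondrial cpn60, 2 were lower in stem at 60 min, beside 11.6% of all genes, and 1 at 180 min, beside 14.3%; 1 was lower in leaf at 180 min, beside 9.61%. Gohir.D09G195800, Chaperonin CPN60-2, was that gene, at 1.72, 2.15 and 2.902 FPKM in leaf at 0 min and 0.509, 0.473 and 0.148 FPKM at 180 min (-1.24 ± 0.26 SE, adjusted p = 0.00451). CCT folds actin and tubulin among others, and of its 3 tested subunit genes 2 were lower in stem at 60 min, and 2 in stem and 1 in root at 180 min, where 26.9% of all genes were lower in root. The eta subunit Gohir.D12G001100 was at 16.7, 16.4 and 13.5 FPKM in leaf at 0 min and 14.9, 11.6 and 14.2 FPKM at 180 min, and none of its 12 comparisons with 0 min passed, the lowest adjusted p being 0.0617. The other eta gene, Gohir.D11G229500, chosen after its values were seen, fell in root from 17.01, 15.01 and 15.6 to 7.801, 6.96 and 12.96 FPKM (-0.76 ± 0.18 SE, adjusted p = 0.00275).

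One chaperonin, Gohir.A09G201900 (chromosome A09, 80676769 to 80681978), followed the Hsp70 opposition. It fell in leaf from 5.797, 6.32 and 5.11 to 1.1, 0.956 and 0.8002 FPKM (-1.79 ± 0.23 SE, adjusted p = 0.000144) and in stem from 4.04, 9.04 and 10.5 to 1.79, 2.4 and 1.87 FPKM (-1.47 ± 0.31 SE, adjusted p = 0.0038). In root it rose from 3.57, 6.18 and 3.68 to 8.48, 9.25 and 9.76 FPKM (0.92 ± 0.3 SE, adjusted p = 0.018), a call lost without root 0 min library 2 or y and with own totals. Of the members, 4 had a cpn60 domain beside another domain (2 with FYVE, 1 described as Potassium transporter 4 and 1 as a cation transporter) and are not chaperonins by their other description.

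Read across tissues at 180 min among the 114 members and 39679 genes tested in all 3, 16 members were lower in leaf and stem and higher in root: 10 Hsp70, 5 Hsp90 and 1 cpn60 gene, beside 0.559% of all genes. In recounts chosen after seeing the data, this count was 10 with own totals, beside 0.339%, and 9 with quantile normalization, beside 0.406%. Another 8, all Hsp70, were lower in leaf and higher in root without a call in stem, beside 1.12%. This count was 1 of 114 with own totals, beside 0.64%, and 3 of 114 with quantile normalization, beside 0.97%. With own totals it thus lay near the share of all genes. By contrast 20 were lower in leaf and stem with no call in root, beside 1.19%, and 13 were lower in all 3 tissues, beside 2.81%. In root alone 19 were lower, beside 14.3%. The difference between tissues was tested in the fit of all 45 libraries. The response over the 4 times differed between leaf and root in 69 of 125 members, beside 42.8% of all genes, and between root and stem in 70, beside 36.9%. Between leaf and stem it differed in 13, beside 15.3%, a count of 5 to 8 without leaf 180 min library 1 or 3, stem 10 min library 2 or stem 180 min library 2. By family, the leaf and root responses differed in 38 of 48 Hsp70, 18 of 25 Hsp90 and 13 of 52 cpn60 genes. Without root 180 min library 3 the 13 were 25, so the cpn60 count rested on 1 library. The 42.8% of all genes is from the fit with that library, so the 25 cannot be set against it. The root and stem responses differed in 13 cpn60 genes too, in 27 without that library and in 7 without root 180 min library 2. All comparisons of a tissue share its 0 min libraries.

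**Figure D4:**
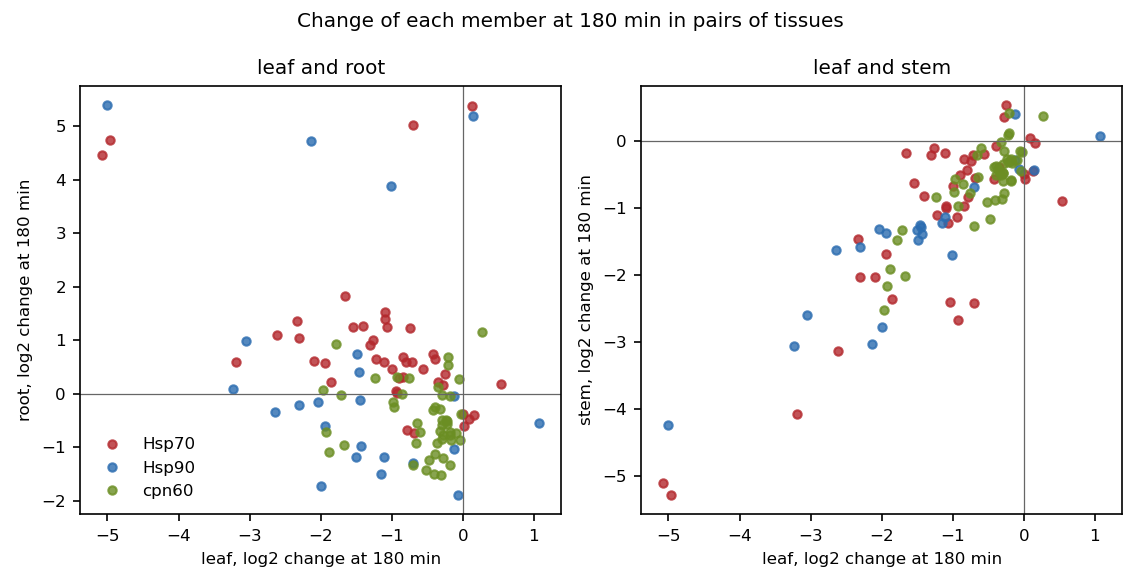
Change at 180 min from 0 min in log2(FPKM + 1) in leaf (x axis) against root and against stem (y axes), 1 point per member tested in both, coloured by family. Most Hsp70 points lie left of 0 for leaf and above 0 for root, and most points of all families lie below 0 in both leaf and stem.

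For Gohir.A05G096700 the interaction test gave an adjusted p of 1.75e-12 between leaf and root, where the log2 changes at 180 min differed by -9.70, and 4.52e-12 between root and stem. Gohir.A12G254100 gave 7.98e-12 and 1.34e-10. By the group with its highest mean, 16 of the 48 Hsp70 genes tested over all libraries peaked in root at 180 min, beside 19.4% of all genes, and with own totals 6 did, beside 7.82%. In leaf at 0 min 10 of 25 Hsp90 genes peaked, beside 8.48% (11 and 8.79% with own totals), and in stem at 0 min 16 of 52 cpn60 genes, beside 7.95% (29 and 10.5%).

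**Figure D5:**
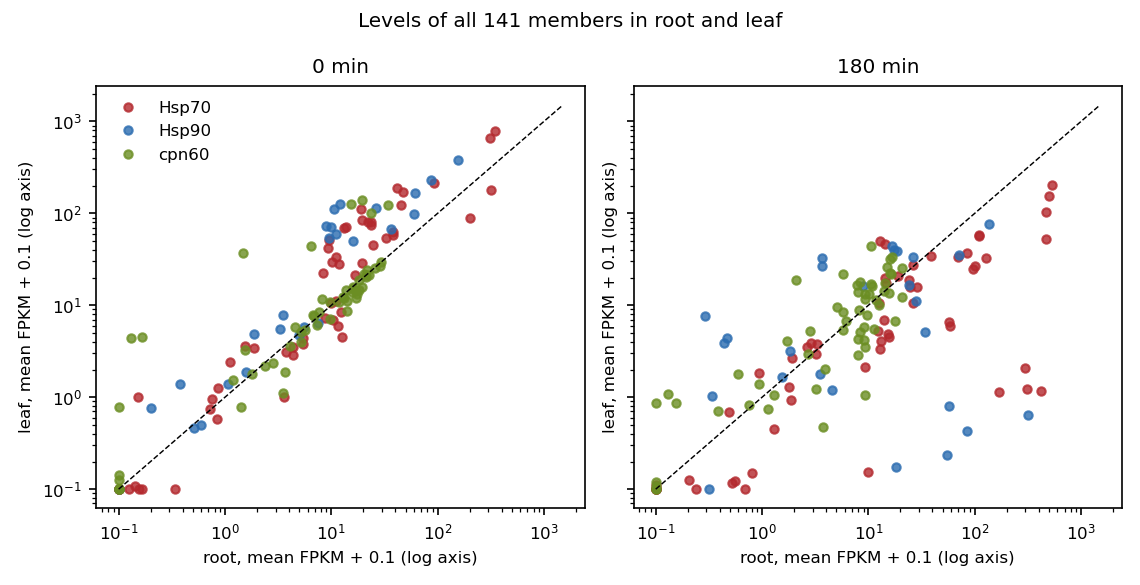
Mean FPKM + 0.1 of all 141 members in root (x axis) and leaf (y axis), both on log axes, at 0 min and at 180 min of PEG, coloured by family. At 0 min most Hsp70 and Hsp90 points lie above the dashed line of equal levels, on the leaf side, and at 180 min many lie below it.

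The 2 subgenomes gave like counts. At 180 min in leaf 32 of 58 members of A and 32 of 60 of D were lower, beside 9.61% of all genes. In stem 29 of 58 and 32 of 60 were lower, beside 14.3%. In root 17 of 59 of each were higher, beside 28.5%, and 22 of A and 18 of D were lower, beside 26.9%. Members lying within 50000 bases of another of the same family formed 14 pairs of 27 genes. The Hsp90 genes Gohir.A06G002800 and Gohir.A06G002900 (the second chosen after its values were seen) lay 1381 bases apart on A06. At 180 min in root the first was at 22.3, 11.7 and 15.6 FPKM, not called (adjusted p = 0.0728), and the second fell from 65.6, 78.7 and 37.6 to 18.5, 12.4 and 20.96 FPKM (-1.72 ± 0.29 SE, adjusted p = 0.000194).

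Partners of these chaperones were counted from lists of their domain or Swiss-Prot names, with the deposited scaling alone. At 180 min 28.5% of all genes were higher and 26.9% lower in root, 9.89% and 9.61% in leaf and 15% and 14.3% in stem, and the counts below are at that time unless another is given. The 12 cpn10 genes, the lids of organelle chaperonins, were lower in leaf in 9 and in stem in 10 at 180 min, with 4 higher and 2 lower in root. Gohir.D09G105500, a cpn10 gene, fell in leaf from 38.7, 38.5 and 50.9 to 14.4, 13.7 and 13.1 FPKM (-1.56 ± 0.16 SE, adjusted p = 1.93e-05). Of J-domain genes, 81 of 197 were higher and 32 lower in root, beside 16 and 34 of 204 in leaf and 30 and 32 of 200 in stem. Hsp90 co-chaperones had 15 higher and 7 lower of 35 in root, 1 and 10 of 34 in leaf and 2 and 15 of 35 in stem. Gohir.A10G041000, of the CS domain that many Hsp90 partners share, rose in root from 12.05, 10.97 and 13.8 to 49.7, 48.9 and 37.9 FPKM (1.8 ± 0.16 SE, adjusted p = 8.93e-07) and fell in leaf (-2.01 ± 0.21 SE, adjusted p = 2.52e-05) and stem (-1.9 ± 0.23 SE, adjusted p = 0.000113).

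BAG genes, whose proteins release the client of Hsp70, included a steep root rise. Gohir.D02G173100 went in root from 1.03, 0.729 and 2.397 FPKM to 733, 462 and 241 FPKM (7.57 ± 0.4 SE, adjusted p = 1.15e-08). In leaf it was at 5.58, 5.199 and 10.03 FPKM at 0 min and 1.59, 1.099 and 1.06 FPKM at 180 min. In all 8 BAG genes were higher and 4 lower of 18 in root, 2 and 3 of 18 in leaf, and 10 were lower of 22 in stem. Hsp100/Clp genes, of which some forms pull apart aggregated proteins, had 13 higher and 4 lower of 29 in root, 1 and 8 of 28 in leaf and 4 and 5 of 29 in stem. GrpE genes, the exchange factors of organelle Hsp70, had 2 higher and 3 lower of 11 in root, with 1 lower in leaf and 3 in stem, where 6 of 11 had been lower at 60 min beside 11.6% of all genes. Prefoldin genes, the carriers of clients to CCT, had 3 and 2 of 22 in root, 1 and 2 in leaf and 1 and 3 in stem. Folding genes of the endoplasmic reticulum had 6 higher and 4 lower of 24 in root, 7 lower of 26 in leaf, and 2 and 3 of 27 in stem. Gohir.A09G248200, a calnexin, rose in root from 40.8, 41.4 and 30.8 to 157, 113 and 100.2 FPKM (1.67 ± 0.2 SE, adjusted p = 1.16e-05) and fell in leaf (-1.09 ± 0.21 SE, adjusted p = 0.00294), as the BiP gene did.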

How the data were processed

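RNA sequencing of 45 cotton libraries (3 tissues, 5 times, 3 libraries each) was analysed from 1 table. Per the submitters' processing notes, HISAT2 2.0.5 and featureCounts 1.5.0-p3 were used; the genome build, the strand setting and the handling of reads shared by near-identical genes are not given in the sources used here. The authors deposited FPKM; 100% of its values come out as whole reads (within 0.01 read) once gene length and 1 factor per library are undone, and that factor equals a median-of-ratios size factor, not a total. Totals were 16373617 to 21774520 reads. The name of 2 root 0 min columns is the same; they are called libraries x and y.

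From there limma 3.58.1 in R 4.3.3 was run on log2(FPKM + 1), with a trended and robust prior, over genes at 1 FPKM or more in at least 3 libraries. Each tissue's 15 libraries were fitted together, without replicate numbers; pairs of tissues at 0 min and interactions over the 4 times (F test) used all 45. The method was tested on simulated data with known library factors and most genes unchanged. That test cannot speak to the scaling of the root libraries. The p-values were adjusted over all genes tested. The members and lists were chosen with earlier results of these data known. Named genes are those highest in each family, tissue and described class, the largest called rises and falls without overlap at each time, the largest tissue differences, the smallest interaction p-values, and the 2 partner genes of each list with the smallest p over times; exceptions are marked as chosen after their values were seen. The partner list of Hsp90 co-chaperones left out 6 genes matched by accession letters alone, a choice made after the values had been seen. Alternatives were another pseudocount, other filters, other scalings, array weights, a replicate block, other fits and leaving out each library.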

Additional observations from a re-analysis of the deposited data

Results flagged for a closer look

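The course over the 4 times differed between tissues by an interaction F test in limma. It did so for 69 members between leaf and root, for 13 between leaf and stem and for 70 between root and stem, of 125 tested. Of all genes it did so for 42.8%, 15.3% and 36.9% in that order. The leaf and stem share of members, 10.4%, thus lay below that of all genes. Between leaf and root the smallest adjusted p-values were those of Gohir.A05G096700, an Hsp70 gene (1.75e-12), and Gohir.D03G148100, an Hsp83 gene (2.68e-12). The same genes had the smallest values between root and stem, 4.52e-12 for Gohir.A05G096700 and 8.58e-12 for Gohir.D03G148100. Between leaf and stem they were those of the Hsp70-17 gene Gohir.A10G192200 (0.00200) and of Gohir.D11G214600 (0.00499).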

How the results depend on the processing

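No called change of a member reversed direction under any alternative run, but the balance of higher and lower calls did in 4 comparisons. In root at 30 min 15 higher and 7 lower became 10 and 16 with own totals. The counts of all genes went from 8201 and 7754 to 6788 and 11290. At 60 min 18 and 12 became 10 and 18 with own totals and 15 and 18 with quantile normalization. The counts of all genes went from 9105 and 8927 to 7314 and 12183 and to 8939 and 10100. At 180 min 34 and 40 became 39 and 37 with no filter, 34 and 30 with a filter at 5 FPKM, 31 and 29 with its 6 libraries alone, 33 and 30 without root 0 min library x and 35 and 30 without root 180 min library 2. For leaf against stem 23 and 12 became 27 and 32 with array weights. Array weights, whose fit did not reach limma's convergence tolerance, raised many counts of called members: to 41 in leaf at 30 min and 64 at 60 min, to 17, 55 and 49 in root at 10, 30 and 60 min, to 7 and 32 in stem at 10 and 30 min, to 59 for leaf against stem at 0 min, and to 107, 67 and 117 for the interactions of leaf and root, leaf and stem, and root and stem. The 1 call in leaf at 10 min became 0 with a pseudocount of 0.1, array weights, the replicate block or its 6 libraries alone, and 2 with a filter at 5 FPKM, own totals or quantile normalization. The 2 calls in root at 10 min became 8 with own totals, 10 with quantile normalization, 6 with its 6 libraries alone and 4 in the fit of all 45. The fit of 6 libraries alone gave 15 in leaf at 60 min and 0 in stem at 30 min, and the fit of all 45 gave 1 in stem at 10 min and 11 at 30 min. Where no count of all genes stands beside them, these counts and the ranges below cannot be set against the share of all genes.

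Leaving out 1 library in turn gave ranges of 0 to 1, 7 to 16, 19 to 30 and 52 to 60 calls in leaf at 10, 30, 60 and 180 min, of 1 to 2, 15 to 30, 21 to 27 and 63 to 78 in root, and of 0 to 0, 0 to 5, 40 to 76 and 48 to 70 in stem. At 0 min the ranges were 52 to 58 for leaf and root, 28 to 37 for leaf and stem and 49 to 61 for root and stem. For the interactions they were 63 to 80, 5 to 15 and 61 to 84 in that order. For named genes 520 such changes kept their call and 44 lost it.

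With the replicate number as a block, stem at 30 min had 1 call and leaf at 10 min 0; for named genes 28 calls held and 5 were lost. No block could be fitted for root, where 2 libraries at 0 min carry 1 name. Of 8 comparisons checked, same-numbered libraries deviated together in every pair (correlation over 0.1) in 1, so the numbers are not shown to pair libraries. A group of 3 libraries limits the precision throughout.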

Other observations

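A pair of Hsp70 genes, Gohir.D02G007600 and Gohir.A02G007800, differed in 1 set of libraries; the pair was chosen after its values were seen. At 60 min Gohir.D02G007600 stood at 56.5, 4.99 and 41.2 FPKM in leaf, 12.8, 4.92 and 10.6 FPKM in root and 25.97, 3.17 and 23.1 FPKM in stem, so that library 2 was the lowest in each of the 3 tissues. In the same libraries Gohir.A02G007800 stood at 60.3, 66.1 and 41.7, 11.3, 11.3 and 9.81 and 28.5, 28.5 and 18.9 FPKM, where library 2 was not the lowest in leaf or stem. In stem the change of Gohir.D02G007600 at 60 min was -1.68 ± 0.51 SE, adjusted p = 0.0327, and -0.81 without stem 60 min library 2.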
